A study of Mus musculus with 34 samples.

Results

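The genes described here encode Polycomb repressive complex 2 (PRC2), which methylates lysine 27 of histone H3, and the factors that join it. They were taken by name, and all 9 were found in the deposited counts of mouse ES cells, among 22018 genes listed for the single mutants of the NuRD subunits Mta1, Mta2 and Mta3 and 48709 listed for the Mta123KO experiment. There are 4 core genes (Ezh2, Ezh1, Eed and Suz12), 2 accessory genes of PRC2.2 (Jarid2 and Aebp2) and 3 accessory Polycomb-like genes of PRC2.1 (Mtf2, Phf1 and Phf19).

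RNA-seq was made from 34 libraries of 129/Ola mouse ES cells. Mta1_del/del and Mta3_del/del cells were made by Cre deletion in Mta1_flox/flox and Mta3_flox/flox cells, the parent of each mutant serving for comparison, and Mta2_KO cells, which come from a single primary line, were compared with Mta2_WT, with 3 libraries per genotype in 2i+LIF (2iL), a medium with Mek and Gsk3 inhibitors and the cytokine LIF. Control cells of the other experiment already carry a deleted Mta1 allele and floxed Mta3 alleles, and Mta123KO cells lack all of Mta1, Mta2 and Mta3, with most of Mta2 deleted or replaced by a selection cassette. Each was labelled either as 2iL or as 48 h in N2B27 without inhibitors and LIF, which starts differentiation towards neuroectoderm, with 4 libraries per group, 2 from each of 2 line numbers. No label says that libraries of the single mutants came from separate cultures, so p-values measure the spread between libraries, which may be technical, and libraries of the same line number are not independent.

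PRC2 is built on Suz12, the scaffold, and Eed, which binds trimethylated lysine 27 and stimulates the enzyme, with Ezh2 or Ezh1 as the methyltransferase. In ES cells it keeps developmental genes with CpG-rich promoters silent. PRC2.2 contains Jarid2, which recognises monoubiquitylated histone H2A, and Aebp2, whereas each PRC2.1 complex holds one Polycomb-like protein, Mtf2, Phf1 or Phf19, whose DNA-binding domain recognises unmethylated CpG and whose Tudor domain reads methylated lysine 36 of histone H3.

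The promoters of the Polycomb-like genes are shown because Phf19 was called higher and Mtf2 lower in Mta2_KO and in Mta123KO, as described next. Each runs 5′ to 3′ from 250 bases before to 50 after the RefSeq start in GRCm38.p6, with every CpG in capitals. For Mtf2, which has more than 1 RefSeq start, the first is shown.
Mtf2, chr5:108065424-108065723, plus strand: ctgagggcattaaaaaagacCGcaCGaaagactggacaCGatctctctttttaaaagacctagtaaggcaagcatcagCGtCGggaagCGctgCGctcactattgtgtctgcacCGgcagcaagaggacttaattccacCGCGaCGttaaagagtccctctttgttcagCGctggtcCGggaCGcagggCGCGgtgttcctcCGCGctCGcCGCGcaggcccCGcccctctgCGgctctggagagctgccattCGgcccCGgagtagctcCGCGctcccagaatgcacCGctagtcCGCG
Phf1, chr17:26932877-26933176, plus strand: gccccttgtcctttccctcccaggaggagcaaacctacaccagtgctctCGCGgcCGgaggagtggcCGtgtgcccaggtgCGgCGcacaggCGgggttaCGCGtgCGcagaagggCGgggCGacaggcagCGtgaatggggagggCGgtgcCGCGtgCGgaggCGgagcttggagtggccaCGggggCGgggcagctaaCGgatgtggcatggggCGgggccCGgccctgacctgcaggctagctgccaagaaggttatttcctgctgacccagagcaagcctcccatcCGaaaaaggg
Phf19, chr2:34913927-34914226, minus strand: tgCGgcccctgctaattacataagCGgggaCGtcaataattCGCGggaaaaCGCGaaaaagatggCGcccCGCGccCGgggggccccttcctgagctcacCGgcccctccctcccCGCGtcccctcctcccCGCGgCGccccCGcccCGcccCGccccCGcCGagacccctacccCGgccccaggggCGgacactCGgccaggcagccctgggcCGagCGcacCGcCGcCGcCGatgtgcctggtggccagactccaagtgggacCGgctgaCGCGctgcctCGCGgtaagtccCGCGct
The Phf19 window held 38 CpG (CG, which reads the same on both strands) and 74.3% G and C, the Mtf2 window 30 and 60.7%, and the Phf1 window 24 and 68.7%. Among 32851 RefSeq promoters of the same length 94.6% held a CpG, with a median of 7, and 4.95%, 11.7% and 20.0% held at least as many as Phf19, Mtf2 and Phf1. All 3 windows shown are thus at the CpG-rich end of the promoters listed, and the RNA counts do not measure binding or methylation there. The later Mtf2 window, not shown, held 2 CpG and 45.7% G and C, and 85.9% of the promoters held at least as many CpG.

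Libraries of the single-mutant set held 13105820 to 40613585 counts and the Control and Mta123KO libraries 37855790 to 57602285. The lowest count of a member in any library was 7, for Phf19 in Mta1_flox/flox. Values are CPM, counts scaled to a common library total with TMM factors of each set of libraries. The targeted gene fell from 237 to 10.5 CPM in Mta2_KO and from 66.7 to 11.2 CPM in Mta3_del/del, whereas Mta1 stood at 43.1 ± 4.77 CPM in Mta1_del/del and 84.3 ± 18.4 CPM in its parent (SD, n = 3) and was not called. In Mta123KO all of Mta1, Mta2 and Mta3 were called lower under both culture labels. The culture labels themselves went against the markers and the names of the deposited files. Summed CPM of 6 naive pluripotency genes (Esrrb, Nanog, Klf4, Zfp42, Tfcp2l1, Tbx3) was 147 to 231 in Control libraries labelled 2iL and 3570 to 3930 in those labelled 48 h, against 3030 to 5610 in the single-mutant set, all of it grown in 2iL. Formative genes ran the other way, at 1230 to 1810 against 105 to 120 CPM. Groups are named as labelled throughout. Were the culture labels exchanged, the 2 comparisons of Mta123KO with Control would change places, and each change with culture, and the difference of the genotype effect between cultures, would reverse its sign.

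Mtf2 was the most abundant of the 9 transcripts per kb of exon in 7 of the 10 groups, and Phf19 the least abundant in each of the 5 parental or Control groups. Phf19 was also the least abundant in Mta1_del/del, Mta3_del/del and Mta123KO labelled 48 h, in the last with a range overlapping that of Phf1. In Mta2_WT, Mtf2 was at 125 CPM per kb, Suz12 at 52.9, Eed at 41.8, Jarid2 at 29.7, Aebp2 at 27.3, Ezh2 at 12.7, Ezh1 at 4.92, Phf1 at 1.93 and Phf19 at 0.187 (n = 3 libraries). In that order the ranges over libraries of Suz12 and Eed and of Jarid2 and Aebp2 overlapped, and no other neighbours did. Suz12 was the highest in both Mta3 groups, at 123 CPM per kb in Mta3_flox/flox, and Jarid2 in Mta123KO labelled 2iL, at 39.0 CPM per kb against 29.1 for Mtf2 with overlapping ranges. Counting per kb of the longest transcript in place of all exons moved Eed above Suz12 in Mta2_WT, Mtf2 above Suz12 in Mta3_del/del and Eed to the first place in Mta123KO labelled 2iL. The transcript of the enzyme Ezh2 exceeded that of Ezh1, per kb, in all groups by the mean ratio. This ratio was lowest in Mta3_flox/flox, at 1.25 ± 0.0788 (SD, n = 3), and highest in Mta2_KO, at 2.99 ± 0.162 (SD, n = 3).

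For the loss of Mta2, Mta2_KO was compared with Mta2_WT. The change of Phf19 here was known from earlier results of these data. Its p-values in this comparison, and in those with Mta3 and Mta1 loss, are therefore descriptive and not a new test. Phf19 was 27.6-fold higher in Mta2_KO, while Mtf2 and the PRC2.2 genes Jarid2 and Aebp2, and Eed of the core, were lower by 1.2- to 1.4-fold. A member was called when its adjusted p in edgeR's quasi-likelihood test was under 0.05. By this rule 5 of the 9 members were called, against 47.8% of the 15602 genes tested, 1 of them higher (23.5% of all genes) and 4 lower (24.3%). The median log2 fold change was -0.14 over the members and 0.00 over all genes.

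Phf19 was counted at 26.6, 25.4 and 27.7 CPM in the Mta2_KO libraries and at 0.748, 1.25 and 0.83 CPM in Mta2_WT. All Mta2_KO libraries stood above all Mta2_WT libraries by a wide gap. Its log2 fold change was 4.79 (SE 0.15, adjusted p = 1.84e-08, edgeR), on a chromosome whose 1212 genes tested had a median of -0.02. Mtf2 was at 495, 535 and 501 CPM in Mta2_KO against 720, 728 and 684 CPM in Mta2_WT, a log2 fold change of -0.48 (SE 0.06, adjusted p = 8.83e-05, edgeR), and the groups did not overlap. Phf1, the third Polycomb-like gene, was at 7.25, 7.95 and 8.02 CPM against 6.39, 6.13 and 7.62 CPM. The groups overlapped and the log2 fold change of 0.20 (SE 0.11, adjusted p = 0.169) was not called.

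Among the PRC2.2 genes Jarid2 was at 236, 211 and 229 CPM in Mta2_KO and 296, 317 and 251 CPM in Mta2_WT, a log2 fold change of -0.36 (SE 0.09, adjusted p = 0.00684, edgeR). Aebp2 was at 222, 217 and 226 CPM against 275, 283 and 249 CPM, a log2 fold change of -0.29 (SE 0.06, adjusted p = 0.00236, edgeR). For both genes every Mta2_KO library lay under every Mta2_WT library. In the core Eed was at 127, 138 and 136 CPM against 167, 164 and 150 CPM, a log2 fold change of -0.27 (SE 0.06, adjusted p = 0.00344, edgeR), again without overlap. Ezh2 (0.07), Ezh1 (-0.14) and Suz12 (-0.03) were not called on this log2 scale and their groups overlapped. Without replicate 1 the calls of Eed (adjusted p = 0.068) and Jarid2 (0.0602) were lost in edgeR. A fit of all 18 single-mutant libraries together kept only Phf19 and Mtf2, where 16.1% of all genes were called. Markers of other cell states differed between the same libraries: summed CPM was 7.51 to 10.1 in Mta2_KO against 37.9 to 40.3 for 5 trophoblast genes, 58.1 to 64.9 against 20.7 to 28.4 for the neural genes Nes, Pax6 and Sox1, and 3400 to 3530 against 4650 to 4940 for the naive genes. Nes and Pax6 carried the neural sum, while Sox1 was lower, at 0.269 against 0.861 CPM. Of the trophoblast genes 1 was called higher and 3 lower, and of the naive genes 1 higher and 5 lower (23.5% and 24.3% of all genes). The part of these markers in the result was not tested, and in bulk RNA fewer cells of a type cannot be told apart from less RNA per cell.

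Neither of the other single mutants gave a called change of a member. In the Mta1 series 0 of the 9 members were called, against 0.0% of the 14561 genes tested in edgeR; DESeq2 also called no member and no member had an unadjusted p under 0.05, while 50 of all genes had. Phf19 was at 1.62, 1.70 and 1.99 CPM in Mta1_del/del and 1.05, 0.51 and 1.87 CPM in Mta1_flox/flox, with the ranges overlapping and a log2 fold change of 0.60 (SE 0.48). The other 8 members had log2 fold changes from -0.32 (Jarid2) to 0.11 (Suz12), each with overlapping groups.

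In the Mta3 series 0 of the 9 members were called by edgeR, against 16.2% of the 15522 genes tested, a share that was 0.0128% without replicate 1 and 0.0124% without replicate 3. There were 3 members with an unadjusted p under 0.05, and DESeq2 called 1, Aebp2. Phf19 was at 3.83, 6.76 and 2.79 CPM in Mta3_del/del and 5.36, 6.98 and 10.3 CPM in Mta3_flox/flox. The groups overlapped and the log2 fold change was -0.81 (SE 0.36, adjusted p = 0.147, edgeR). Ezh2 was at 105, 111 and 117 CPM against 81.6, 76.7 and 102 CPM, with a log2 fold change of 0.30 (SE 0.11, adjusted p = 0.0921, edgeR). Aebp2 (-0.51) and Suz12 (-0.38) were lower on average on the log2 scale, with adjusted p of 0.0872 and 0.0906 in edgeR. Without replicate 2 edgeR called Aebp2 (-0.70, adjusted p = 0.0104), Suz12 (-0.55, 0.0322) and Phf19 (-1.32, 0.0354) lower.

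The effect of Mta2 loss on Phf19 differed from that of Mta3 loss by 5.57 on the log2 scale (SE 0.53, adjusted p = 4.79e-05, edgeR) and from that of Mta1 loss by 4.23 (SE 0.56, adjusted p = 0.000844). Phf19 was the single member called in either test of the difference, which called 15.5% and 3.35% of the 16271 genes tested. Without replicate 1 the difference from the Mta1 effect was 4.12 with an adjusted p of 0.123.

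**Figure D1:**
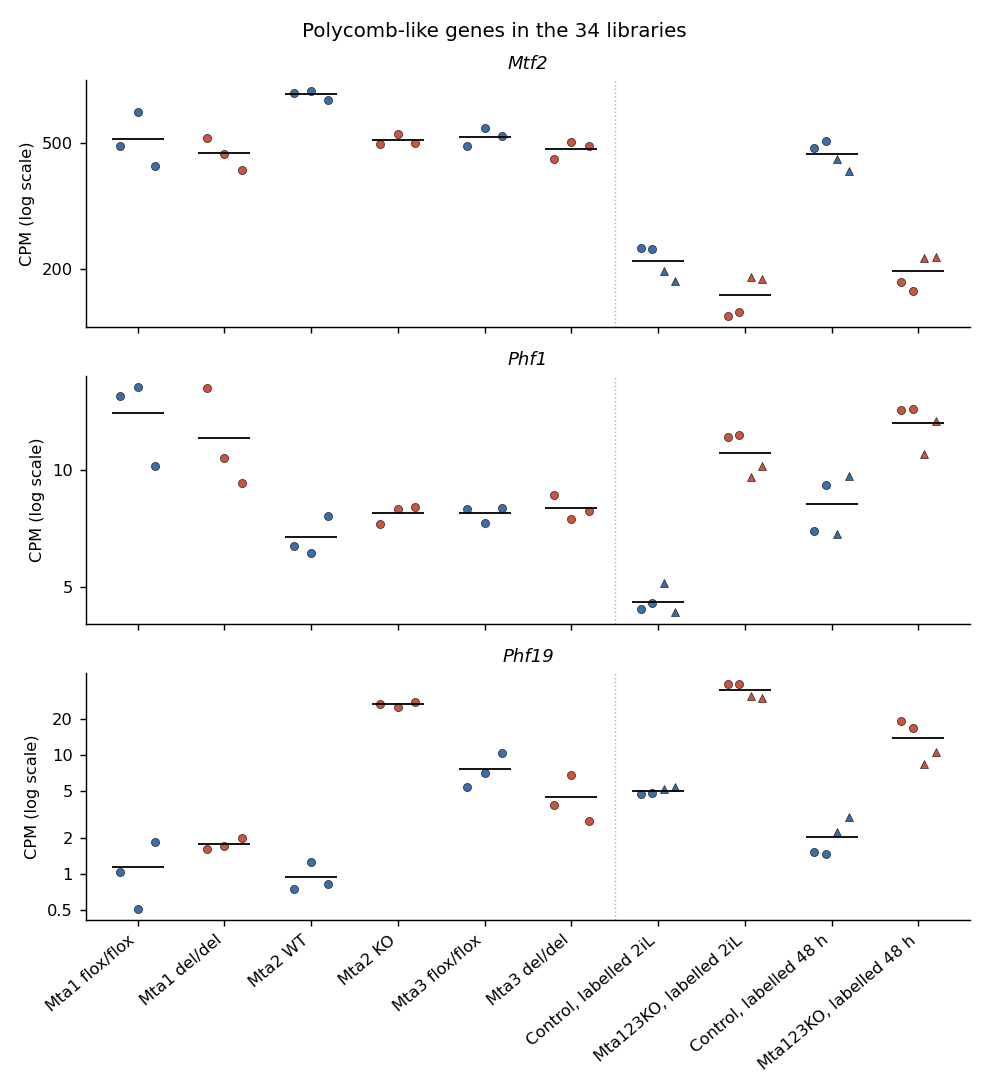
CPM (log scale) of Mtf2, Phf1 and Phf19 in each of the 34 libraries by group, mutants in red and parents or Controls in blue. Lines are group means, triangles are libraries of line number 2, and the dotted line separates the 2 sets of libraries, which were normalised separately. Phf19 stands at 25.4 to 27.7 CPM in Mta2_KO and at 0.748 to 1.25 CPM in Mta2_WT.

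Loss of all of Mta1, Mta2 and Mta3 was then compared with Control under each culture label. In libraries labelled 2iL Phf19, Phf1, Eed, Aebp2, Jarid2 and Suz12 were higher in Mta123KO, and Mtf2 and Ezh2 were lower. Thus 8 of 9 members were called, against 51.3% of the 21651 genes tested, 6 of them higher (27.1% of all genes) and 2 lower (24.2%). Their median log2 fold change was 0.61, against 0.01 over all genes. By class, 2 of 4 core genes, both PRC2.2 genes and 2 of 3 Polycomb-like genes were higher.

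Phf19 was at 39.0, 39.5, 31.0 and 29.8 CPM in Mta123KO labelled 2iL and at 4.66, 4.80, 5.18 and 5.39 CPM in Control. The groups were far apart, by 2.81 on the log2 scale (SE 0.12, adjusted p = 1.32e-06, edgeR). Phf1 was at 12.2, 12.3, 9.62 and 10.3 CPM against 4.38, 4.55, 5.12 and 4.30 CPM, also without overlap, a log2 fold change of 1.29 (SE 0.12, adjusted p = 4.52e-05, edgeR). Mtf2 ran the other way, at 143, 147, 189 and 186 CPM against 234, 232, 197 and 184 CPM. Its groups overlapped and its log2 fold change of -0.33 (SE 0.12, adjusted p = 0.0431, edgeR) was not stable. Between the libraries numbered line 2 in each genotype, a fit added after seeing the data, it was -0.01. The line numbers are not shared between the genotypes beyond the number. The call was lost without replicate 1_1 (adjusted p = 0.223) or 1_2 (0.215), or with spike-in scaling (0.0676).

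Of the core, Eed was at 103, 99.3, 112 and 123 CPM in Mta123KO labelled 2iL against 56.7, 53.8, 57.4 and 57.3 CPM in Control, a log2 fold change of 0.97 (SE 0.08, adjusted p = 1.99e-05, edgeR). Suz12 was at 166, 143, 138 and 116 CPM against 94.7, 107, 85.7 and 86.5 CPM, a log2 fold change of 0.60 (SE 0.12, adjusted p = 0.00231, edgeR). Neither gene's groups overlapped, although 1 Mta123KO library of Suz12 came close to the highest Control. Ezh2, the main methyltransferase of ES cells, was at 41.5, 42.7, 52.5 and 43.9 CPM against 53.1, 52.2, 57.7 and 57.1 CPM. These ranges overlapped slightly, and the log2 fold change of -0.27 (SE 0.09, adjusted p = 0.0272, edgeR) was lost without replicate 1_1 (adjusted p = 0.099), 1_2 (0.08) or 2_2 (0.114), and with spike-in scaling (0.212). Ezh1 was at 25.9, 28.1, 22.7 and 21.5 CPM against 34.1, 46.0, 24.2 and 28.0 CPM and was not called (log2 fold change -0.41, SE 0.19, adjusted p = 0.0942, edgeR). It was called lower in 4 of 10 other settings. These were one fit of all 16 libraries (adjusted p = 0.0357, edgeR), the replicate block (0.0366), line 1 alone (0.00196) and line 2 alone (0.0483).

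The PRC2.2 genes were both higher. Jarid2 was at 334, 308, 446 and 426 CPM in Mta123KO labelled 2iL, with the highest values in line 2, against 244, 262, 252 and 250 CPM in Control, a log2 fold change of 0.61 (SE 0.12, adjusted p = 0.00239, edgeR). Aebp2 was at 78.4, 80.1, 83.7 and 81.5 CPM against 47.2, 47.1, 49.9 and 43.4 CPM, a log2 fold change of 0.81 (SE 0.06, adjusted p = 1.71e-05, edgeR). Neither gene's groups overlapped. With the libraries of each line summed, so that the line was the sample, 4 members stayed called in edgeR (Phf19, Phf1, Eed and Aebp2), against 15.4% of all genes. Suz12 (adjusted p = 0.0647) and Jarid2 (0.0812) were then not called.

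**Figure D2:**
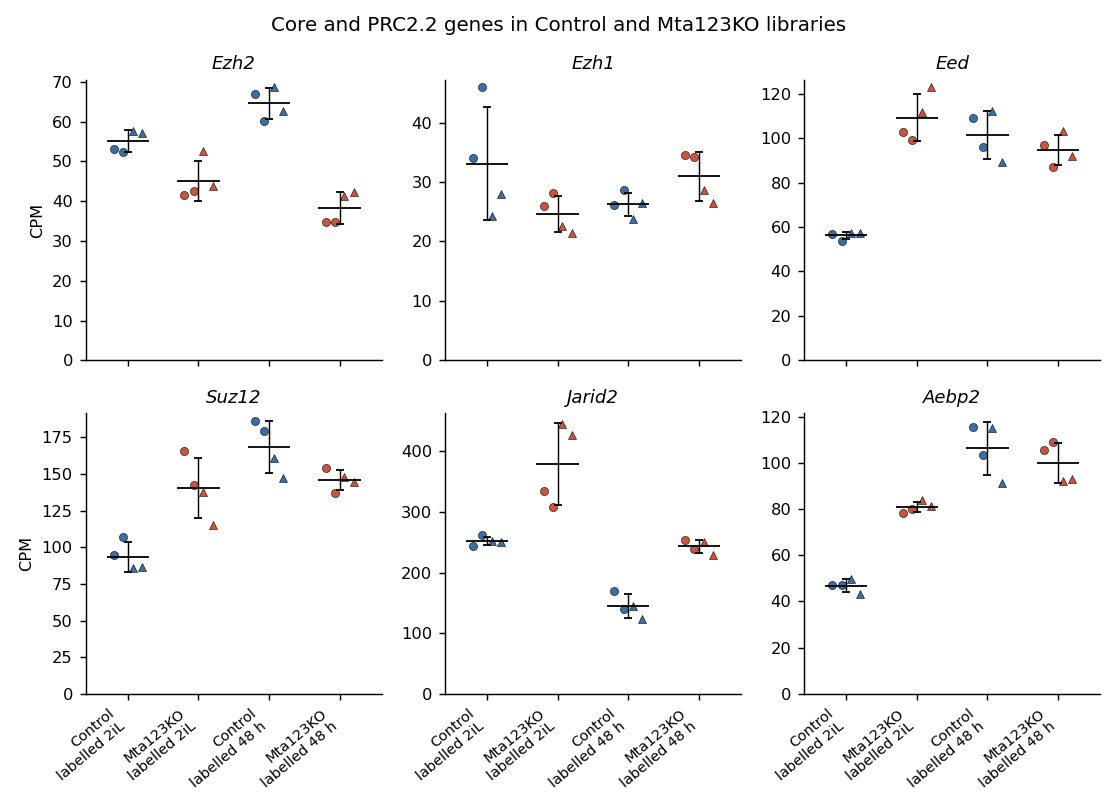
CPM of the 4 core and 2 PRC2.2 genes in the 16 Control (blue) and Mta123KO (red) libraries by culture label, with circles for line 1 and triangles for line 2. Lines and bars are means ± SD of 4 libraries. Eed, Suz12 and Aebp2 are lowest in Control labelled 2iL and Jarid2 is lowest in Control labelled 48 h.

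In libraries labelled 48 h 5 of 9 members were called, against 50% of the 21079 genes tested, 3 higher (26.6% of all genes) and 2 lower (23.4%). The median over members was -0.08 and that over all genes 0.01 on the log2 scale. Phf19, Jarid2 and Phf1 were higher and Mtf2 and Ezh2 lower in Mta123KO. Eed, Suz12 and Aebp2, which rose under the other label, were not called.

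Phf19 was at 19.3, 16.7, 8.45 and 10.6 CPM in Mta123KO labelled 48 h and 1.53, 1.47, 2.25 and 2.98 CPM in Control. The groups stood apart by 2.75 on the log2 scale (SE 0.33, adjusted p = 0.000154, edgeR). The libraries of line 1 were higher than those of line 2 in Mta123KO and lower in Control. Phf1 was at 14.3, 14.4, 11 and 13.4 CPM against 6.96, 9.17, 6.83 and 9.65 CPM, a log2 fold change of 0.71 (SE 0.15, adjusted p = 0.00362, edgeR). Mtf2 showed the widest fall of any member in the 5 comparisons of a mutant with its parent, from 481, 508, 444 and 407 CPM in Control to 182, 170, 218 and 219 CPM in Mta123KO. This was a log2 fold change of -1.21 (SE 0.10, adjusted p = 2.69e-05, edgeR), with all Mta123KO libraries near the level of Control labelled 2iL.

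Ezh2 was at 34.8, 34.9, 41.2 and 42.3 CPM in Mta123KO labelled 48 h and 66.8, 60.1, 68.8 and 62.6 CPM in Control, a log2 fold change of -0.74 (SE 0.09, adjusted p = 0.000149, edgeR). Jarid2 was at 254, 239, 250 and 229 CPM against 170, 140, 145 and 124 CPM, a log2 fold change of 0.76 (SE 0.09, adjusted p = 0.000204, edgeR). The other members were not called: Eed differed by -0.09 (SE 0.09), Suz12 by -0.20 (SE 0.08), Aebp2 by -0.08 (SE 0.09) and Ezh1 by 0.25 (SE 0.11) on the log2 scale. All 5 calls held in edgeR with the libraries of each line summed (adjusted p from 0.0173 for Mtf2 to 0.0456 for Phf1), where 17.1% of all genes were called.

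Trophoblast markers moved with this genotype. The summed CPM of Cdx2, Elf5, Gata3, Krt8 and Krt18 was 59.5 to 364 in Mta123KO against 12.5 to 14.1 in Control labelled 2iL, and 129 to 708 against 8.70 to 10.6 labelled 48 h, with Krt8 and Krt18 making most of it. Naive markers summed to 392 to 530 CPM in Mta123KO labelled 2iL and 1870 to 2760 CPM labelled 48 h, between the 2 Control groups. Their part in the differences of the PRC2 genes was not tested.

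**Figure D3:**
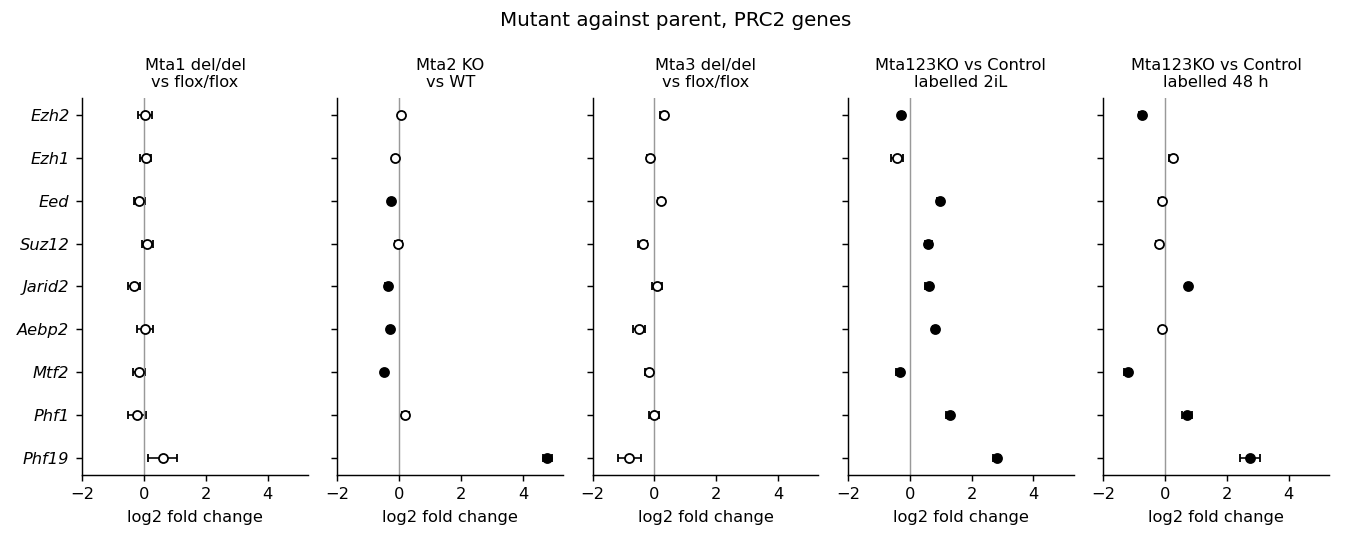
Log2 fold change ± SE (edgeR) of each member in the 5 comparisons of a mutant with its parent, filled where the adjusted p is under 0.05. Phf19 is at 4.79 in Mta2_KO and at 2.81 and 2.75 in Mta123KO, and Mtf2 is under 0 in each of these comparisons.

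Whether the genotype effect differed between the culture labels was tested as an interaction over the 16 libraries, the log2 fold change labelled 48 h minus that labelled 2iL. It was called for 7 of 9 members, against 23.1% of the 22973 genes tested, negative for 6 (10.6% of all genes) and positive for 1 (12.5%). For Eed it was -1.06 (SE 0.12, adjusted p = 1.44e-05, edgeR), for Aebp2 -0.88 (SE 0.11, adjusted p = 5.07e-05), for Mtf2 -0.87 (SE 0.17, adjusted p = 0.00143) and for Suz12 -0.79 (SE 0.15, adjusted p = 0.00117). These 4 were called without any single replicate number. The calls of Ezh2 (-0.47), Phf1 (-0.57) and Ezh1 (0.67) were not: without replicate 1_1 their adjusted p was 0.0875, 0.11 and 0.205, and without 1_2 it was 0.0562, 0.197 and 0.0977. Phf1 was also lost without 2_2 (0.171), and Ezh1 without 2_1 (0.058) and 2_2 (0.0794). With lines summed Eed and Aebp2 alone stayed called in edgeR, against 2.75% of all genes. Scaling to the spike-in RNAs left 4 calls, those of Eed, Aebp2, Mtf2 and Suz12, against 14.6% of all genes.

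Jarid2 (0.16, SE 0.16, adjusted p = 0.516) and Phf19 (-0.06, SE 0.35, adjusted p = 0.929) were not called for the interaction in edgeR. In fits of each line number alone, added after seeing the data, Phf19 was called in opposite directions. Its interaction was 0.54 in line 1 (adjusted p = 0.0244, edgeR) and -0.67 in line 2 (adjusted p = 0.0358, edgeR).

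**Figure D4:**
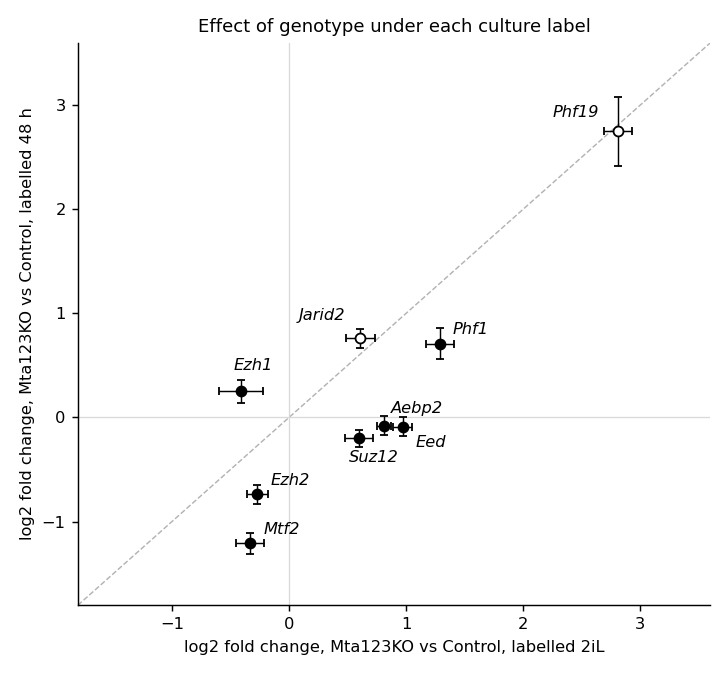
Log2 fold change of Mta123KO against Control labelled 2iL (x axis) and labelled 48 h (y axis) for each member, bars ± SE, filled where the interaction has an adjusted p under 0.05. On the dashed line both effects are equal. Phf19 and Jarid2 lie near it, and Eed, Suz12 and Aebp2 lie between 0.60 and 0.97 on the x axis and under 0 on the y axis.

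The change with the culture label was then taken within each genotype. In Control libraries labelled 48 h, against those labelled 2iL, 8 of 9 members were called, against 58.5% of the 21240 genes tested, 6 higher (29.5% of all genes) and 2 lower (29.0%). Of the core, Eed (0.87, SE 0.07, adjusted p = 2.34e-06), Suz12 (0.87, SE 0.09, adjusted p = 1.21e-05) and Ezh2 (0.25, SE 0.06, adjusted p = 0.00558) were higher on the log2 scale in edgeR. Of the accessory genes Aebp2 (1.20, SE 0.08, adjusted p = 3.41e-07), Mtf2 (1.13, SE 0.09, adjusted p = 1.47e-06) and Phf1 (0.84, SE 0.14, adjusted p = 0.000305) were higher. Phf19 (-1.27, SE 0.21, adjusted p = 0.00031) and Jarid2 (-0.78, SE 0.08, adjusted p = 1.35e-05) were lower, and all 8 were called in each fit that left out 1 replicate number and with lines summed. Ezh1 (-0.32, SE 0.16, adjusted p = 0.118) was called when the pairing was fitted, with an adjusted p of 0.0286 under the replicate block, and in line 1 alone (-0.53, adjusted p = 0.0094). The call of Ezh2 was lost with spike-in scaling (0.43, adjusted p = 0.0505).

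In Mta123KO 3 of 9 members were called for the same contrast, against 22.4% of the 21505 genes tested, 1 higher (12.4% of all genes) and 2 lower (10%). Phf19 was lower by -1.35 (SE 0.26, adjusted p = 0.00686, edgeR) and Jarid2 by -0.64 (SE 0.12, adjusted p = 0.00706), both close to their change in Control, and Aebp2 was higher by 0.30 (SE 0.07, adjusted p = 0.0203). Eed (-0.21), Suz12 (0.05), Ezh2 (-0.24), Mtf2 (0.24), Phf1 (0.25) and Ezh1 (0.33) were not called. The libraries of a line deviated together here. Pairing them by the replicate block gave 8 called members, every one but Suz12, against 42.5% of all genes tested. Ezh1 and Mtf2 then rose (adjusted p = 0.0032 and 0.00582, edgeR), as did Phf1 (0.0297), while Ezh2 (0.02) and Eed (0.0364) fell, all with estimates within 0.01 of those given. With lines summed 0 of the 9 were called, as were 0.0% of all genes, while 5 of the 9 had an unadjusted p under 0.05 in the unsummed fit. Aebp2 was not called without replicate 1_1 (adjusted p = 0.146), 1_2 (0.114) or 2_2 (0.061), nor Jarid2 without 2_2 (0.0575).

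The make-up of the Polycomb-like transcripts is given per kb of exon. Mtf2 made 98.3% ± 0.216 of the sum of the 3 genes in Mta2_WT and 92.3% ± 0.466 in Mta2_KO (SD, n = 3). Phf19 made 0.147% ± 0.0390 and 5.44% ± 0.409 in the same groups. In Control labelled 2iL the Phf19 share was 2.14 to 3.09% and in Mta123KO 14.2 to 21.4%. Labelled 48 h it was 0.317 to 0.791% against 3.90 to 9.60%, and the Phf1 share was 2.30 to 3.70% against 7.33 to 11%. In both, Mtf2 remained the larger part, at 74.0% ± 5.49 in Mta123KO labelled 2iL and 83.9% ± 4.45 labelled 48 h (SD, n = 4). The summed level of the 3 genes was 39.5 ± 4.31 CPM per kb in Control and 39.2 ± 2.93 in Mta123KO labelled 2iL, whereas labelled 48 h it was 83.5 ± 7.53 and 41.1 ± 3.15 (SD, n = 4).

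**Figure D5:**
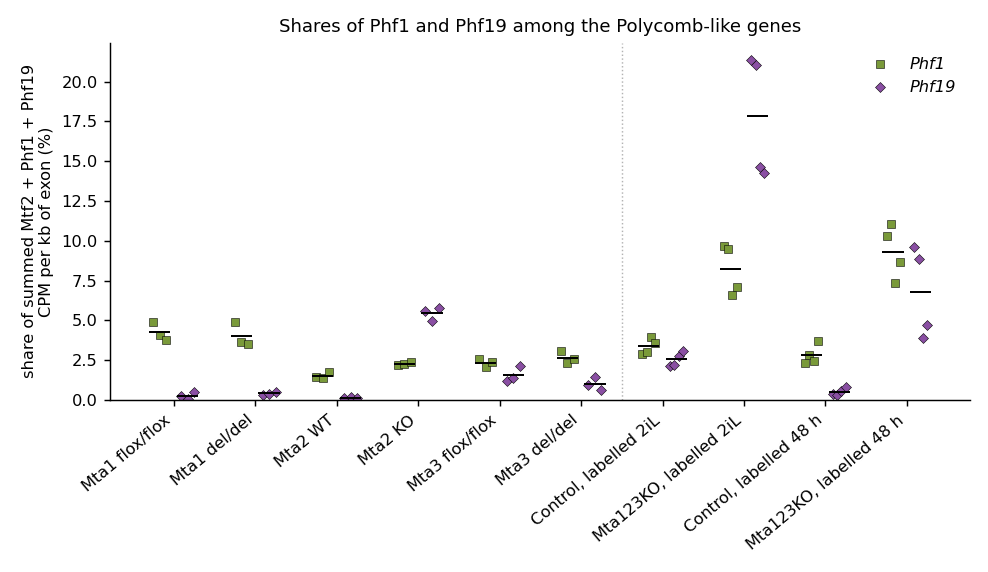
Share of Phf1 (squares) and Phf19 (diamonds) in the summed CPM per kb of Mtf2, Phf1 and Phf19 in each library by group; lines are means and the remainder is Mtf2. The Phf19 share reaches 14.2 to 21.4% in Mta123KO labelled 2iL and is at most 3.09% in Control libraries.

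Some members share bases with a gene on the opposite strand, and the counting strand is not given in the sources used here. Phf19 is among them, overlapped over 1156 bases by Gm13448, which was not among the genes tested. Cuta, which overlaps Phf1 by 4090 bases, was also higher in Mta123KO, by 0.63 labelled 2iL and 0.46 labelled 48 h on the log2 scale. Tmed5, which overlaps Mtf2 by 2639 bases, was lower with Mtf2 labelled 48 h (-0.80, SE 0.06) but higher in Mta2_KO (0.33, SE 0.05), where Mtf2 was lower. Gm26625, a lincRNA over Ezh2, was at 11.6 CPM in Mta123KO and 19.8 CPM in Control labelled 48 h, a log2 fold change of -0.77. Labelled 2iL the genes opposite Eed and Suz12 moved with them, E230029C05Rik by 0.95 (Eed 0.97) and Gm26563, which overlaps Suz12 by 12515 bases, by 0.52 (Suz12 0.60). The overlaps given are of whole genes, introns included. Annotated transcripts shared a stretch of at least 200 bases only for Phf1 and Cuta (720), Mtf2 and Tmed5 (396), and Eed and E230029C05Rik (261). Without strand, reads from bases shared by the exons of a pair cannot be told apart. No near-identical copy of a member was found elsewhere among the annotated transcripts.

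Phf19 lies on chromosome 2 (34893757 to 34914026, minus strand, GRCm38). Of 9 other genes tested within 250 kb in the Mta2 series 3 were called higher and 0 lower, against 23.5% and 24.3% of all genes: Hspa5, an endoplasmic reticulum chaperone (1.71, SE 0.05), Hc, complement component C5 (0.98, SE 0.17), and Cntrl, a centriole protein (0.26, SE 0.06, log2 scale). Psmd5, at 18.8 kb one of the nearest, was at 0.03 and Traf1, at 27.7 kb on the other side, at -0.01. In Mta123KO labelled 2iL 4 of 11 neighbours were higher, with Hc at 2.78 and Cutal, at 1.62 kb, at 2.46, and 1 was lower (27.1% and 24.2% of all genes). Labelled 48 h 5 of 12 were higher, with Hc at 1.79, and 2 lower (26.6% and 23.4%). In the Mta3 series Hspa5 was higher (0.69) and Traf1 lower (-1.79), the 2 called of 9 neighbours, where 16.2% of all genes were called.

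By root mean square difference of centred log2 CPM over the 10 group means, among 13586 genes, the genes most like Phf19 were Aif1l (0.77), Perp (0.78) and Dnah12 (0.78), against a median of 1.66 over all genes. For Ezh2 they were Pcgf6, Gtpbp6 and Rps27a (each 0.08, median 0.40), Pcgf6 being a Polycomb repressive complex 1 (PRC1) gene. For Jarid2 they were Vamp3 (0.15), Eno4 (0.15) and Wipf1 (0.16), with a median of 0.51. Measured over the 5 mutant effects instead, none of these 9 genes was among the 3 most alike.

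Other partners of PRC2 were counted as context. Of Rbbp4, Rbbp7, Epop, Lcor, Lcorl and Ezhip (listed as AU022751), 2 were higher and 2 lower in Mta2_KO, where 47.8% of all genes were called. Epop, a PRC2.1 partner, fell by 0.55 on the log2 scale and Rbbp7, a histone chaperone shared by PRC2 and NuRD, by 0.40, while Lcorl (0.37) and Lcor (0.27), which code for the PALI subunits of PRC2.1, rose. In Mta123KO labelled 2iL (51.3% of all genes called) 1 was higher, Lcor (0.91), and 3 were lower, Rbbp4 (-0.50), Lcorl (-0.48) and Epop (-0.34). Labelled 48 h (50%) 3 were higher, Ezhip (2.00), an inhibitor of PRC2, Lcor (0.78) and Rbbp7 (0.62), and 2 lower, Rbbp4 (-0.43) and Lcorl (-0.27). In Mta3_del/del (16.2%) Rbbp7 was higher (0.65) and Lcorl lower (-0.88), and in the Mta1 series 0 of the 6 were called. Between culture labels in Control (58.5%), Epop (0.69) and Lcor (0.44) were higher and Ezhip (-2.83) and Rbbp7 (-0.20) lower, and in Mta123KO (22.4%) Epop (0.81) was higher.

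Of 25 PRC1 genes, which act with PRC2 by marking histone H2A, 6 were higher and 7 lower in Mta2_KO, where 23.5% and 24.3% of all genes were. In Mta123KO 9 were higher and 5 lower labelled 2iL (27.1% and 24.2% of all genes) and 10 and 9 labelled 48 h (26.6% and 23.4%). The widest changes on the log2 scale in Mta2_KO were those of Scml2 (-1.12) and Kdm2b (-1.10), whose product binds CpG islands. In Mta123KO they were those of Phc1 (-1.87) and Bcor (1.52) labelled 2iL, and of Bcorl1 (2.27) and Scml2 (2.05) labelled 48 h. The Mta123KO libraries varied widely in these genes. Labelled 2iL Phc1 was at 164 ± 91.4 CPM and Bcor at 133 ± 73.8 CPM (SD, n = 4). Labelled 48 h Bcorl1 was at 49.8 ± 19.7 CPM and Scml2 at 9.56 ± 8.31 CPM (SD, n = 4). Whether this spread followed the line number was not tested. In Mta3_del/del, with 16.2% of all genes called, 2 PRC1 genes were higher and 1 lower, among them Phc1 (-0.66) and Cbx7 (0.52). With the culture label 10 were higher and 7 lower in Control (29.5% and 29.0% of all genes), and 4 and 2 in Mta123KO (12.4% and 10%). Of 6 genes for H3K27 demethylases and the H2A deubiquitinase, Kdm6b (-0.87) and Kdm6a (-0.34) were lower in Mta123KO labelled 2iL, where no other was called (51.3% of all genes were). Labelled 48 h both were lower (-0.41 and -0.39) and 1 was higher (50% of all genes called), and in Mta2_KO Bap1 alone (-0.25) was called, lower (47.8%). With the culture label 1 was higher and 3 lower in Control (58.5%) and 1 and 1 in Mta123KO (22.4%).

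Genes known as Polycomb targets in ES cells were called in both directions, with the share of all genes called given beside them. Of 30 listed, only those that passed the filter on counts were tested. A gene near 0 in 1 group can pass through the other group alone, so the medians and widest changes partly depend on the filter. Of 21 tested in the Mta2 series 4 were higher and 7 lower (median -0.12; 47.8% of all genes called), with the widest changes those of Cdx2 (-3.30), also on the trophoblast list, and T (-2.23). In Mta123KO labelled 2iL 9 of 20 were higher and 5 lower (median 0.99, against 51.3% of all genes called), led by Hand1 (5.03) and Pax6 (-3.22). Hand1 was at 17.9 ± 16.2 CPM against 0.553 ± 0.173 in Control, and Pax6 at 1.17 ± 0.402 against 11.1 ± 1.58 (SD, n = 4). Labelled 48 h 8 of 19 were higher and 4 lower (median 0.89, against 50% of all genes), led by Lhx9 (4.75) and Neurog1 (3.47). Lhx9 was at 1.26 ± 0.534 CPM against 0.044 ± 0.0137, and Neurog1 at 0.894 ± 0.529 against 0.0792 ± 0.0616 (SD, n = 4). The medians over all genes were between -0.01 and 0.01 in these comparisons and in those of the other single mutants. In the Mta3 series 2 of 24 were called, Hand2 (-2.0) and Gata6 (-1.59), both lower, against 16.2% of all genes called, with a median of -0.95. Fibroblast markers (Col1a1, Col1a2, Col3a1, Thy1) summed to 5.67 to 6.33 CPM in these Mta3_del/del libraries and 11.3 to 57.5 CPM in Mta3_flox/flox, and primitive endoderm markers, Gata6 among them, to 5.92 to 8.47 against 10.5 to 12.3 CPM. Their part in the result was not tested. In the Mta1 series 0 of 18 targets were called, against 0.0% of all genes. With the culture label 6 of 19 were higher and 7 lower in Control (58.5% of all genes called) and 3 of 22 higher and 7 lower in Mta123KO (22.4%).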

How the data were processed

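RNA-seq was analysed from 34 libraries of mouse ES cells. Per the study's methods, NEXTflex Rapid Directional or SMARTer Stranded Pico kits were used. Tophat 2.1.0 placed reads trimmed by Trim Galore! 0.4.1 on GRCm38/mm10, and featureCounts 1.5.0 assigned them to Ensembl release 86 genes, single-end for the single mutants and paired-end for the others. The deposited values are these raw counts per gene, which the authors did not normalise. Handling of multi-mapping reads and the strand setting are not given in the sources used here, which can affect overlapping genes.

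Groups came from the sample labels. The members and gene lists were chosen with earlier results of these data known, the change of Phf19 in Mta2_KO among them. Genes were matched by Ensembl identifier to GENCODE vM21 (48349 of 48709), and promoters, found for all 9 members, to RefSeq. The test was that of edgeR 4.0.16 (in R 4.3.3, with TMM, filterByExpr, quasi-likelihood F test, Benjamini-Hochberg over all genes), only the groups compared entering a fit, or all libraries of a set for differences between effects. Called means an adjusted p under 0.05. CPM used TMM factors of each set; levels per kb used the union of exons. Every called PRC2 partner is named, and from each other list at most the 2 called genes with the widest change per comparison. Likeness used log2 CPM with a prior count of 2, centred per gene within each set. With 200 genes changed in simulated data, the test found 97.8% of 2-fold changes in the Mta2 design (15430 genes) and 79.4% in the Mta123KO design labelled 2iL (21337 genes). The simulated libraries were drawn independently, without shared lines, and only genes above a minimum mean count were changed. These shares need not hold for members with few counts or for libraries of a shared line.

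Libraries of a group differed by more than counting noise (chi-square per degree of freedom at least 4.41), so none was a copy. Replicate numbers pair the samples, as same-numbered libraries deviated together, in the Mta1 series (lowest correlation of deviations 0.445) and between culture labels of a genotype, where the number also names the line (0.221 in Control, 0.495 in Mta123KO). They did not in the Mta2 (-0.191) and Mta3 (-0.116) series or between Mta123KO and Control. Alternatives were DESeq2 1.42.0, RLE factors, no filter, the replicate or line block, leaving out each replicate number, a fit of the whole set, spike-in scaling (92 ERCC RNAs), lines summed, the genes shared with the single-mutant files and a threshold on fold change. Fits of each line alone were added after seeing the data. Amino acid sequences were not used here.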

Additional observations from a re-analysis of the deposited data

Results flagged for a closer look

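The effect of Mta123KO was called different between the culture labels for 7 of the 9 members in the interaction test of edgeR, against 23.1% of all genes tested (adjusted p under 0.05): Eed (-1.06), Aebp2 (-0.88), Mtf2 (-0.87), Suz12 (-0.79), Phf1 (-0.57), Ezh2 (-0.47) and Ezh1 (0.67), each the log2 fold change labelled 48 h minus that labelled 2iL. The calls of Phf1, Ezh2 and Ezh1 were lost when some replicate numbers were left out. With lines summed, Eed and Aebp2 alone stayed called. The effect on Phf19 differed between Mta2_KO and Mta3_del/del by 5.57 and between Mta2_KO and Mta1_del/del by 4.23 on the log2 scale. A check for single libraries far from the rest, over the 9 members in the 4 groups of 4 libraries (36 checks), found none, although chance alone marks about 1 in 20 groups.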

How the results depend on the processing

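Calls are counts of the 9 members in edgeR unless named otherwise, and the cause of each change was not tested. Percentages beside them, where given, are the share of all genes called under the same setting. Requiring an absolute log2 fold change above 1 left by construction 1 call in Mta2_KO (Phf19), 2 in Mta123KO labelled 2iL, 2 labelled 48 h, 3 with culture in Control, 1 with culture in Mta123KO and 1 for the interaction. One fit of all single-mutant libraries gave 2 calls in Mta2_KO (16.1%). In the Mta3 series DESeq2 gave 1 and the replicate block 1, Aebp2 both times. With lines summed, which leaves fewer samples, there were 4 in Mta123KO labelled 2iL (15.4%), 0 with culture in Mta123KO (0.0%) and 2 for the interaction (2.75%). Spike-in scaling gave 4 for the interaction (14.6%). Culture in Mta123KO gave 8 with the replicate block (42.5%), 8 with a line block (47.7%), 6 in line 1 alone (45.6%) and 5 in line 2 alone (41.2%). The block, where numbers did not pair the samples, gave 2 for the difference of the Mta2 and Mta3 effects (29.3%). It moved no other count of members by over 1.5 times. In Mta123KO labelled 2iL, also unpaired, it called Ezh1 (adjusted p = 0.0366) and lost Mtf2 (0.115). Fits within a line number match Control and mutant lines that share only that number. Leaving out 1 replicate number gave 3 to 5 calls in Mta2_KO. In the Mta3 series it gave 0 without replicate 1 (0.0128%) or 3 (0.0124%) and 3 without replicate 2. With culture in Mta123KO it gave 1 to 3 (11.7 to 14.4%), and for the interaction 4 to 6 (12.9% without 1_1, 14.2% without 1_2). For the Mta2 effect against the Mta1 effect it gave 0 without replicate 1 (0.0123%) and 1 otherwise (0.435% without replicate 3).

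Directions reversed only for values that were near 0 or uncalled in the main fits. Phf1 in the Mta3 series (-0.01) was 0.02 with DESeq2, 0.03 without a filter, 0.05 in one fit of the set and -0.04 to 0.03 leaving out a replicate number. Suz12 with culture in Mta123KO was -0.08 in line 1 alone and -0.03 to 0.11 leaving out replicates. In the interaction Jarid2 was -0.08 with spike-in scaling and Phf19 -0.29 to 0.18 leaving out replicates. Phf19 was called for the interaction in line 1 alone (0.54, adjusted p = 0.0244, edgeR) and, the other way, in line 2 alone (-0.67, adjusted p = 0.0358). Leaving out a replicate number also gave in the Mta1 series Ezh2 -0.04 to 0.14, Ezh1 -0.19 to 0.25, Suz12 -0.10 to 0.22, Aebp2 -0.07 to 0.13 and Mtf2 -0.28 to 0.02, in the Mta2 series Suz12 -0.18 to 0.14 and Ezh2 -0.04 to 0.19, and in the Mta3 series Jarid2 -0.01 to 0.22. Of all genes, 16.2% were called in the Mta3 series but 0.0128% without replicate 1 and 0.0124% without replicate 3, and with culture in Mta123KO 22.4% but 42.5% with the replicate block. Mta2_KO is a single line, and the few libraries limit what small changes could be called.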
